A study of Mus musculus with 221 samples.

Results

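The mitochondrial ribosomal proteins (MRPs) were followed in single early 2-cell mouse embryos. A gene was counted as an MRP when its symbol began with Mrpl or Mrps and a number and was not marked as a pseudogene. The rule gave 78 of the 55291 genes in the count table, 49 named for the large subunit (Mrpl) and 29 named for the small subunit (Mrps), while 6 pseudogene symbols were left out. No expression value entered the rule.

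Each library was made from 1 embryo by Smart-seq2, a protocol that primes on poly(A) tails, and held either an embryo whose sire ate a high-fat diet (HFD, 38 embryos numbered 31 to 70 and 84 with other numbers) or one whose sire ate a low-fat diet (LFD, 99 embryos). All sires were C57BL/6N males that began the diet at 6 weeks of age and stayed on it for 2 weeks, and all oocytes came from unexposed C57BL/6N-mtST dams, so that every embryo of either group had a C57BL/6N nuclear genome and the mitochondrial DNA of the Staudach (ST) line. Fertilization was in vitro with frozen-thawed sperm of 4 males per diet, with an HFD and an LFD male on each date and other males on every date. The labels gave the diet and an embryo number but no sire or date, so sire and diet cannot be told apart and the p-values measure only the spread between embryos.

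Mitochondria keep their own ribosome, which translates the few proteins that mitochondrial DNA encodes, all of them part of the respiratory chain or the ATP synthase. Its RNA comes from the mitochondrial genome, mt-Rnr1 (12S rRNA) for the small subunit and mt-Rnr2 (16S rRNA) for the large subunit, whereas every MRP is encoded in the nucleus, made in the cytosol and imported. Part of the MRPs have counterparts in bacterial ribosomes and others arose in the mitochondrial lineage. The mitochondria and mitochondrial ribosomes of a cleavage-stage embryo are inherited from the oocyte. In the early 2-cell embryo most mRNA is maternal and the major wave of transcription from the embryo's own genome is beginning.

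Total counts ran from 1937251 to 17246791 per embryo with a median of 5706066, and between 11364 and 21638 genes had a count. The 10 oocyte and 2-cell markers, among them Gdf9, Bmp15, Dppa3 and Zscan4d, had a median above 0 in both diets and none was called between diets. Of the 6 sperm mRNAs, only Prm2 had a median above 0. The reads carried no molecular identifiers and were amplified by PCR, so values that rest on few counts are less certain than their counts alone would give.

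MRP mRNAs were present in every embryo and took between 0.153% and 0.357% of all counts, with a median of 0.201%. Of the 78 members, 30 had a count in every embryo, 64 in at least 90% of embryos and 3 in only a minority. The 3 were Mrpl33, Mrpl52 and Mrpl53, all in the large subunit. Mrpl53 had no count in any embryo, and 88% of its exon bases are shared with Gm42688 on the same strand, where the counting program leaves reads unassigned. For 72 members the counts passed the low-count filter and could be tested. The other 6 were Mrpl23, Mrpl33, Mrpl52, Mrpl53, Mrps18c and Mrps31.

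Levels of single members were spread widely. On the scale of counts per 1000000 counts (CPM) divided by exon length in kilobases (CPKM), the tested members ranged from 0.363 to 64.2, a 177-fold span, with a median of 6.74. The median was 9.80 over the 45 tested Mrpl genes and 6.34 over the 27 tested Mrps genes, beside 4.54 over all nuclear genes tested and 21.6 over 90 cytosolic ribosomal protein genes. The members with a bacterial counterpart had a median of 6.34 (45 tested) and those without one a median of 12 (26 tested). Exon length covers all annotated exons of a gene together, 607 bases for Mrpl34 and 8631 for Mrps35. Mrpl15 and Mrps12 had similar mean counts, 26 and 25.7, but 0.541 and 4.33 CPKM. The order by CPKM thus follows annotated length as well as counts.

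The 4 highest members by CPKM were Mrpl34, Mrps7, Mrpl18 and Mrps23. Mrpl34, a small protein of the large subunit with a bacterial counterpart, had a mean level of 64.2 CPKM. Mrps7, which binds the 12S rRNA in the head of the small subunit, had 57, Mrpl18, a protein of the central protuberance of the large subunit, had 56.1, and Mrps23, a small-subunit protein without a bacterial counterpart, had 53.5. The 4 genes overlapped between embryos, and the order of their means was not tested. Part of the exon bases of Mrps7 (11.9%) and Mrpl18 (10.1%) lie opposite another gene, and the libraries do not mark strand, so reads of Mrpl18 and its neighbour Tcp1 in that stretch cannot be told apart.

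The 4 lowest tested members were Mrps35 (0.363 CPKM), Mrpl19 (0.462), Mrps5 (0.506) and Mrpl15 (0.541). Mrpl19, Mrps5 and Mrpl15 have a bacterial counterpart and Mrps35 has none, so the lowest members included both shared and mitochondria-specific proteins. Each of the 4 had a highest embryo of at least 12.1 CPM and a lowest embryo at 0, in both diets. For Mrpl19, 36% of the exon bases lie opposite Gcfc2.

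Several members have names that do not give their place. Mrps30 and Mrps18a sit in the large subunit despite the Mrps symbol, and Mrps36 is a subunit of the 2-oxoglutarate dehydrogenase complex in place of the ribosome. Mrps30 was among the more abundant members, at 16.8 CPKM, while Mrps36 was at 2.50. The 3 relatives of bacterial S18 differed in level, with Mrps18b at 6.34, Mrps18c at 1.37 and Mrps18a at 0.765 CPKM. Opposite-strand or same-strand neighbours share 30.54% of the exon bases of Mrps18b and 23.2% of those of Mrps18c. Mrpl23, which lines the peptide exit of the large subunit, was at 0.307 CPKM and had a count in 76.5% of embryos.

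**Figure D1:**
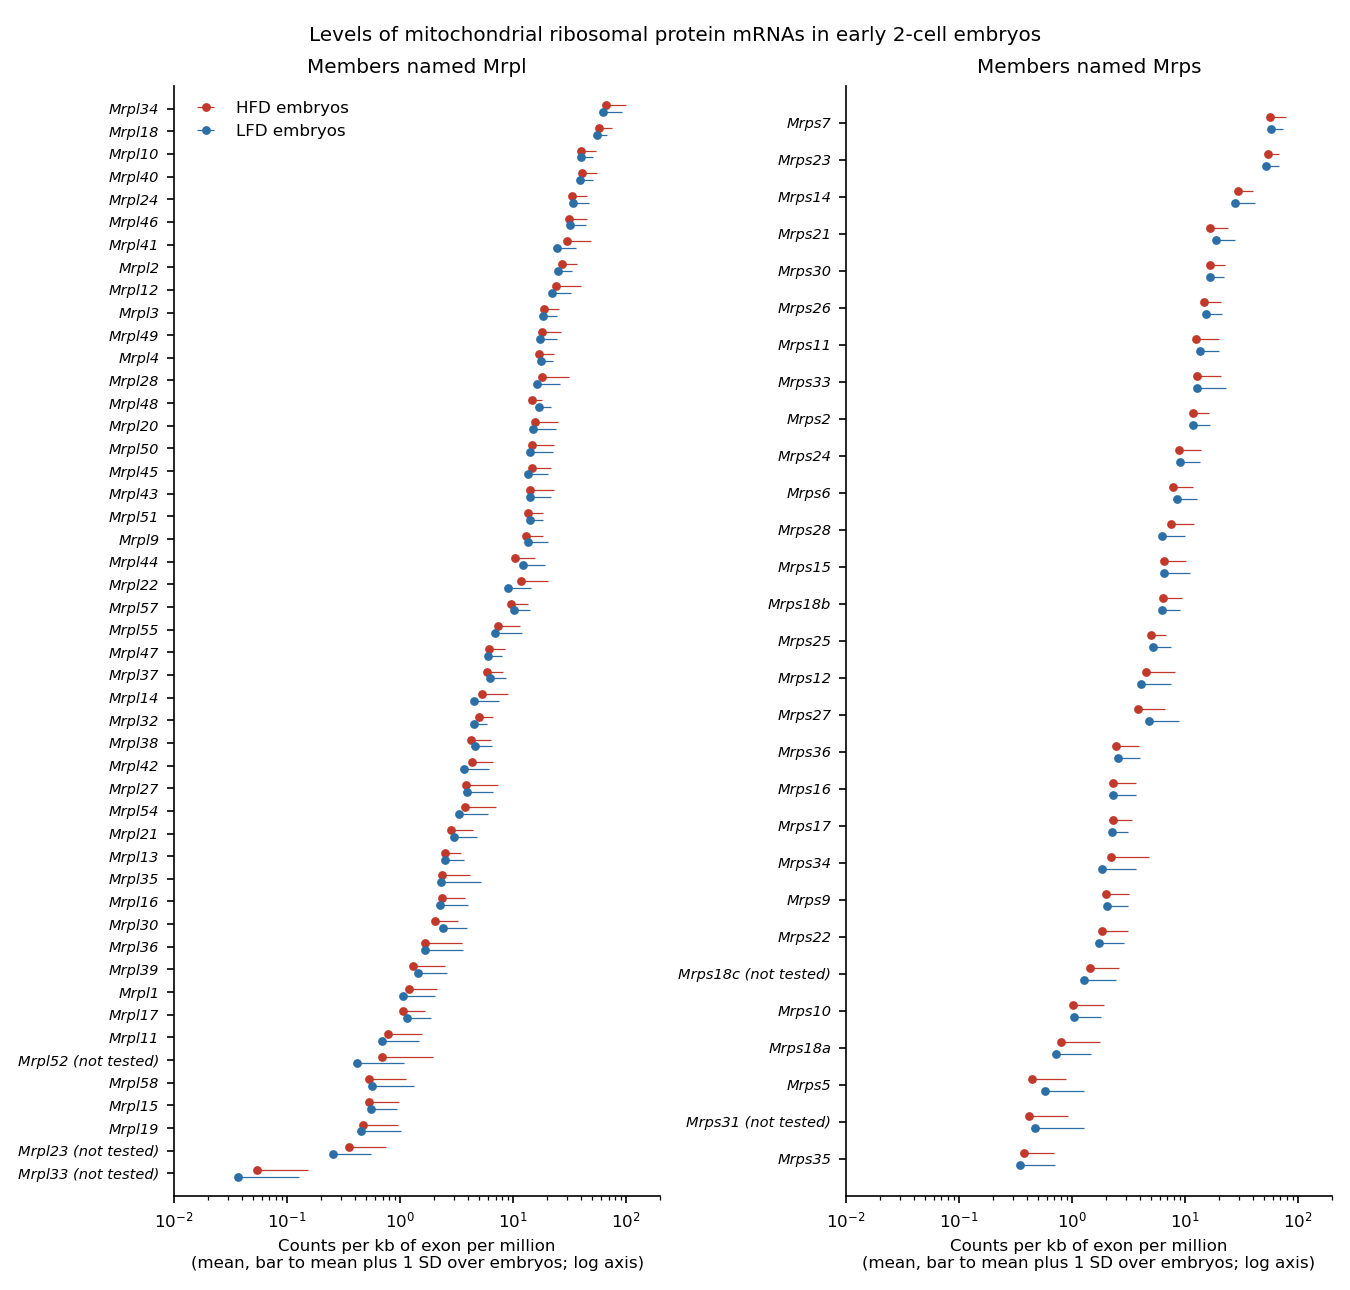
Mean level of each member in HFD embryos (red) and LFD embryos (blue, n = 99), in CPKM on a log axis, with bars reaching 1 SD above the mean. Mrpl53, at 0 in every embryo, is not drawn. Levels span from below 0.1 to above 60, and the red and blue points of a gene lie close together.

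Variation between embryos was compared among the 19 members with a mean of at least 5 on the log2(CPM + 1) scale in LFD embryos. The most variable were Mrpl9 (SD 0.83 log2 units in LFD and 0.63 in HFD embryos), Mrpl34 (0.63 and 0.75) and Mrps2 (0.62 and 0.70). The least variable were Mrpl18 (0.31 and 0.45), Mrps23 (0.34 and 0.35) and Mrpl48 (0.35 in both). The SD of Mrpl9 was larger in LFD embryos and those of Mrpl34, Mrps2 and Mrpl18 larger in HFD embryos. No test was made of a difference in spread.

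Sire diet was tested gene by gene over all embryos with edgeR's quasi-likelihood test and Benjamini-Hochberg adjustment over 14820 genes. The labels do not give embryo sex, and the model held no term for it. The summed log2 level of 7 Y-linked genes had a median of 5.43 in HFD and 3.57 in LFD embryos. With that level as a covariate Mrpl48 was the 1 member called (edgeR, adjusted p = 0.0202), beside 1.82% of all genes. Of the 72 tested members, 1 passed the threshold of 0.05, Mrpl48, which was lower in HFD embryos. Among all genes tested 2.12% were called, and 1.05% were called lower in HFD embryos, and the 1 of 72 members (1.39%) lies between these shares. At an unadjusted p under 0.05 there were 6 of 72 members, 5 of them Mrpl and 1 Mrps, and 1890 of 14820 genes, a larger share. Point estimates lay above 0 for 46 of 72 members, with a median log2 fold change of 0.06 over the Mrpl genes, 0.01 over the Mrps genes and 0.00 over all genes tested.

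Mrpl48, a protein of the central protuberance without a bacterial counterpart, lies on chr7:100545751-100608301 (GRCm38) and was among the most abundant members in counts. In HFD embryos its level ran from 50.9 to 216 CPM with a median of 116 CPM. In LFD embryos it ran from 72.4 to 296 CPM with a median of 136 CPM. The groups overlapped over most of their range, and 94 HFD embryos lay under the LFD median and 28 over it. The log2 fold change was -0.20 with a standard error of 0.05 (edgeR, adjusted p = 0.00945). Rab6a, which lies opposite 8.68% of the Mrpl48 exon bases, had a log2 fold change of -0.05 (adjusted p = 0.682).

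The Mrpl48 difference was not even along the embryo numbers. In 9 of the 11 ranges of 10 numbers that held embryos of both diets the mean log2 level was lower in HFD embryos, with differences from -0.47 (numbers 41 to 50) to 0.05 (numbers 11 to 20). The median was 109.2 CPM in the 38 HFD embryos numbered 31 to 70 and 120.6 CPM in the other 84 HFD embryos. Without the 38 embryos the log2 fold change was -0.12 and the call was lost (edgeR, adjusted p = 0.385). With ranges of 10 numbers within a diet as a random effect the log2 fold change was -0.20 and the call was also lost (limma-voom, adjusted p = 0.0744). Leaving out any 1 embryo moved the log2 ratio of the mean CPM only between -0.24 and -0.21.

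**Figure D2:**
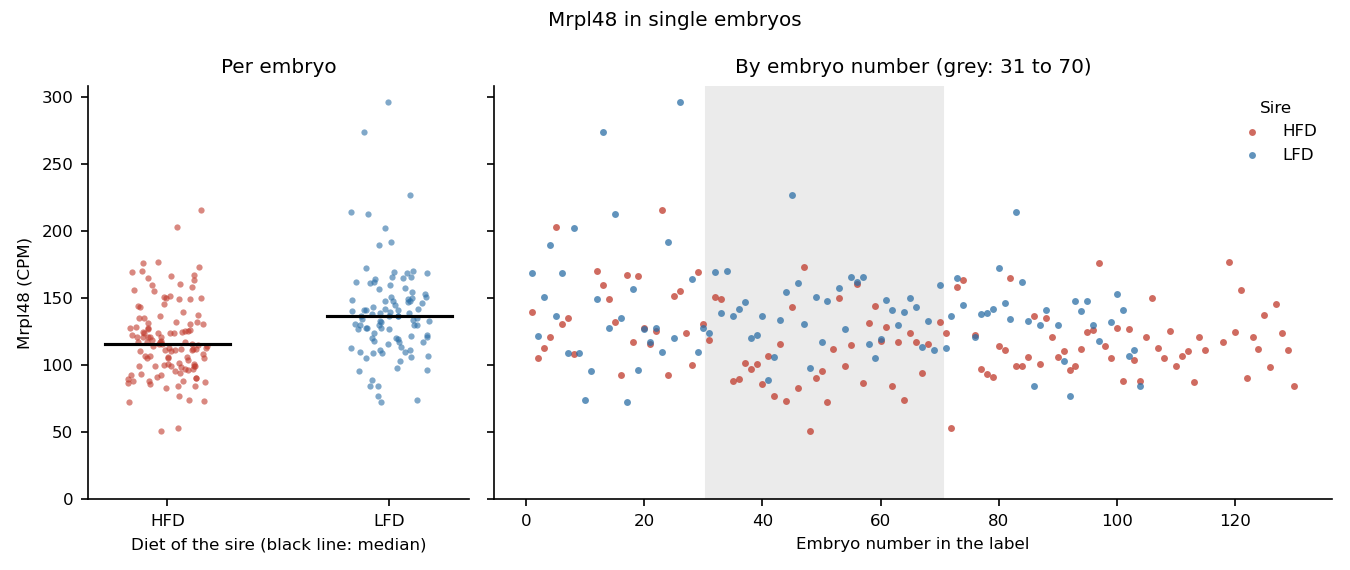
Mrpl48 in CPM, 1 point per embryo, by sire diet on the left (black line, median) and against the embryo number of the label on the right, with numbers 31 to 70 shaded. The median was 116 CPM in HFD and 136 CPM in LFD embryos. HFD points run lower than LFD points over much of the number axis, the shaded numbers included.

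The large-subunit members next in order of p were Mrpl22, whose bacterial counterpart lines the peptide exit tunnel, and Mrpl41. Mrpl22 had a median of 9.79 CPM in HFD embryos (range 0 to 41.7) and 7.76 CPM in LFD embryos (range 0.794 to 27.2), a log2 fold change of 0.40 ± 0.13 (SE; edgeR, adjusted p = 0.0922). Mrpl41 had medians of 23.2 CPM (range 4.36 to 123.5) and 20.3 CPM (range 2.28 to 61.9), a log2 fold change of 0.30 ± 0.11 (SE; edgeR, adjusted p = 0.130). The diets overlapped in both genes, with 7 HFD embryos above the highest LFD embryo for Mrpl22 and 4 for Mrpl41, and 73 and 74 HFD embryos over the LFD median against 49 and 48 under it. Both depended on the setting. Mrpl22 passed with DESeq2 (adjusted p = 0.0483). It had 0.27 with limma-voom (adjusted p = 0.423) and with number blocks within a diet (adjusted p = 0.688). Mrpl41 passed with no low-count filter (edgeR, adjusted p = 0.0359), where 15.4% of all genes were called. It fell to 0.10 without HFD embryos 31 to 70 (edgeR, adjusted p = 0.855). An annotated copy elsewhere in the genome shares 29.8% of the 31-base stretches of Mrpl22 (Gm6997) and 21.1% of those of Mrpl41 (Gm6434), so the counts of both genes are uncertain.

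No member named for the small subunit passed over all embryos. Mrps28 had a median of 5.38 CPM in HFD embryos (range 0.356 to 16.6) and 4.22 CPM in LFD embryos (range 0 to 12.9), and 6 HFD embryos lay above all LFD embryos. Mrps28, which corresponds to bacterial S1, differed by 0.29 ± 0.13 log2 units (SE; edgeR, adjusted p = 0.295). Mrps27, an RNA-binding pentatricopeptide repeat protein, had -0.31 ± 0.17 (adjusted p = 0.444), and Mrps14, a protein of the head, had 0.12 ± 0.07 (adjusted p = 0.471). Mrps14 had 0.19 and passed without the embryos with under 16000 genes (edgeR, adjusted p = 0.0209), and had 0.01 without HFD embryos 31 to 70 (edgeR, adjusted p = 0.990). Point estimates over the 27 tested Mrps genes ran from -0.34 to 0.29, and over the 45 Mrpl genes from -0.21 to 0.40. Of the Mrps27 exon bases, 24.2% lie opposite 6430562O15Rik.

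**Figure D3:**
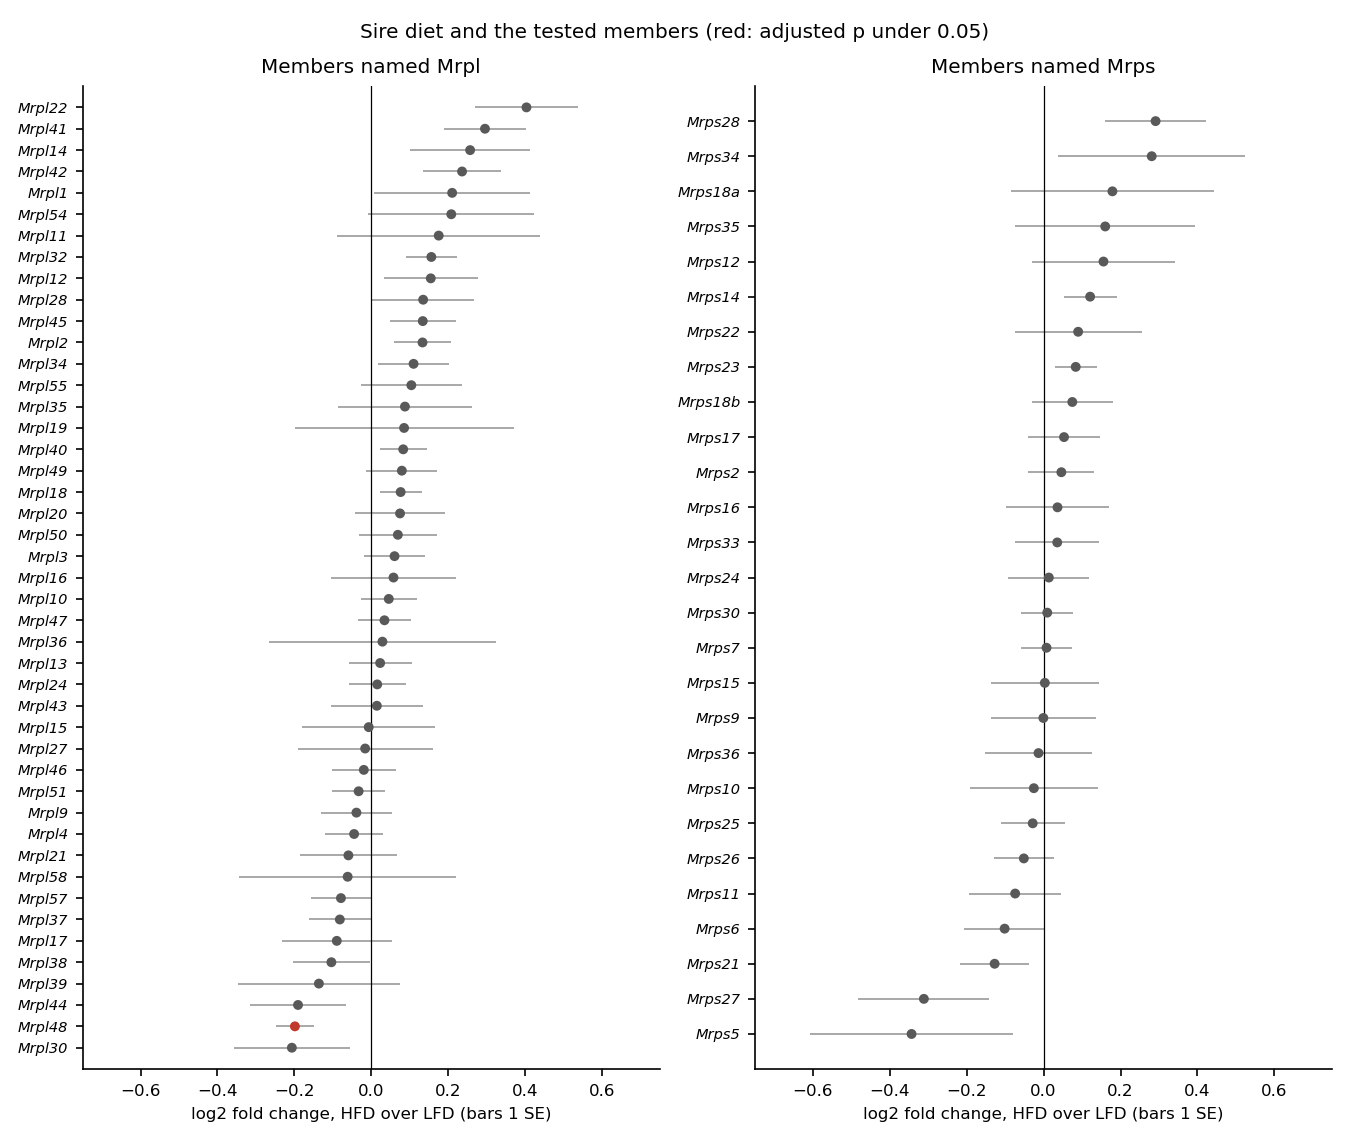
Log2 fold change of HFD over LFD embryos for the 45 tested Mrpl and 27 tested Mrps genes, with bars of 1 standard error (edgeR, all embryos). Mrpl48, in red, is the 1 member past the adjusted threshold, at -0.20.

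Genes that work with the mitochondrial ribosome were tested in the same fit. None of the 5 ribosomal proteins that go under another symbol (Dap3, Ptcd3, Chchd1, Aurkaip1 and Gadd45gip1), none of 15 translation factors and none of 24 tested assembly and rRNA-modification factors passed, 0 of 44 in all by edgeR and 0 also by DESeq2, and 1 of the 44 had an unadjusted p under 0.05. Among the proteins of the cytosolic ribosome, 3 of 90 rose in HFD embryos (Rps27, Rpl38 and Rps28, log2 fold changes 0.52, 0.37 and 0.26) and none fell. Of 34 nuclear complex I subunits, 3 rose (Ndufb6, Ndufb2 and Ndufb8, log2 fold changes 0.24, 0.41 and 0.34). None of the cytosolic or complex I genes was called with number blocks within a diet (limma-voom) or without HFD embryos 31 to 70 (edgeR), where 14 and 13 of the 90 cytosolic genes and 6 and 4 of the complex I genes had an unadjusted p under 0.05. The median log2 fold change was 0.10 over the cytosolic list and 0.13 over the complex I list (0.05 with number blocks and 0.07 without HFD embryos 31 to 70), against 0.04 over the MRPs. Whether these medians differ was not tested.

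Some macrophage markers were higher in part of the HFD embryos. Of 10 such genes 5 could be tested and Cd68, Mmp12 and Spp1 were called higher in HFD embryos, while Adgre1, Tyrobp, Fcer1g and C1qa were at 0 in the median embryo of both diets. The summed log2 level of the 10 genes spanned 3.74 to 11.61 in HFD embryos, against 3.81 to 7.08 in LFD embryos, with medians of 5.65 and 5.71. With number blocks within a diet none of the 5 was called or had an unadjusted p under 0.05, and their median log2 fold change was 0.01 (limma-voom) against 1.23 over all embryos (edgeR). With this level as a covariate Mrpl48 stayed the 1 member called. Of 10 cumulus and granulosa markers 3 could be tested and none was called.

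The summed level of each subunit was nearly the same in the diets. As log2 of the summed CPM, the Mrpl genes had a mean of 10.32 ± 0.17 (SD) in HFD and 10.32 ± 0.16 (SD, n = 99) in LFD embryos. The Mrps genes had 9.51 ± 0.22 and 9.52 ± 0.20. The difference between HFD and LFD means was 0.00 for Mrpl (95% interval -0.04 to 0.04) and -0.01 for Mrps (-0.06 to 0.05). These intervals, and the interval for the Mrpl minus Mrps difference below, treat embryos as independent. They leave out the spread between sires.

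The summed Mrpl level exceeded the summed Mrps level in every embryo. The log2 difference was 0.81 ± 0.17 in HFD and 0.80 ± 0.17 in LFD embryos, that is 1.75-fold and 1.74-fold, and its lowest and highest embryos were at 1.34-fold and 2.56-fold. The HFD mean minus the LFD mean was 0.01 (95% interval -0.04 to 0.05). These sums go by symbol and cover 49 Mrpl and 29 Mrps genes, and few genes carry much of them. Whether the excess goes beyond the larger number of Mrpl genes was not tested. Mrpl48, Mrpl3 and Mrpl18 held 25.6% of the Mrpl sum, and Mrps7, Mrps30 and Mrps14 held 43.7% of the Mrps sum. The Mrps sum thus includes Mrps30 and Mrps18a, which sit in the large subunit, and Mrps36, which is not in the ribosome.

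The subunit sums moved together across embryos. Spearman's rho between the Mrpl and Mrps levels was 0.59 over all HFD and 0.32 over the 99 LFD embryos (Pearson's r 0.67 and 0.56). The points share the library and its depth, and both levels tended to be lower where more genes had a count (rho from -0.36 to -0.19). With the summed complex I subunits rho was 0.71 for Mrpl and 0.66 for Mrps in HFD embryos and 0.53 and 0.50 in LFD embryos. With the cytosolic ribosomal proteins it was 0.58 and 0.72 in HFD and 0.18 and 0.53 in LFD embryos.

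The median pair of single members hardly moved together, while single pairs ranged widely. The median rho over the 1081 pairs of large-subunit genes, placed by structure, was 0.05 in HFD and 0.04 in LFD embryos, over the 276 small-subunit pairs 0.04 and 0.02, and over the 1128 mixed pairs 0.05 and 0.04. Over all pairs of tested nuclear genes it was 0.02 in both diets. Pairs within a subunit were thus not closer than pairs across subunits. The pair of Mrpl46 and Mrps11, which are transcribed away from each other, had a rho of 0.65 in HFD and 0.56 in LFD embryos. In the annotation used for counting their exons overlap by 173 bases on opposite strands, so part of their reads cannot be told apart.

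The mitochondrial rRNAs themselves were higher in HFD embryos. The log2 level of mt-Rnr1 and mt-Rnr2 summed ran from 10.85 to 14.93 with a mean of 12.77 ± 0.56 (SD) in HFD embryos and from 10.0005 to 14.20 with a mean of 12.23 ± 0.70 in LFD embryos. The ranges overlapped widely. The log2 fold change was 0.72 ± 0.12 (SE) for mt-Rnr1 and 0.50 ± 0.09 for mt-Rnr2 (edgeR, adjusted p = 9.15e-06 and 9.82e-05). Smart-seq2 captures rRNA only through poly(A) stretches, so these are levels of captured rRNA and not of ribosomes. Beside them stand the differences of 0.00 for the summed Mrpl and -0.01 for the summed Mrps level. These are differences of mean log2 CPM and not edgeR fold changes. With TMM-scaled library sizes they were 0.03 and 0.02.

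Across embryos, the relation of the summed MRP levels to the rRNA level was weak and changed with the way the levels were computed. Within HFD embryos Pearson's r with the rRNA level was -0.01 for Mrpl and 0.21 for Mrps (Spearman's rho -0.14 and 0.09, all HFD embryos). Within LFD embryos r was 0.12 and 0.23 (rho -0.12 and 0.07, n = 99). Without the 2 embryos farthest from the median rRNA level, r was -0.21 and 0.03 in HFD and 0.02 and 0.16 in LFD embryos, so the positive values rested in part on those embryos. The large-minus-small difference had r = -0.29 in HFD and -0.16 in LFD embryos, and -0.23 and -0.16 without the 2 embryos. As the mean of log2 over members in place of the summed CPM, the r of that difference was -0.04 and 0.01, that of Mrpl 0.0053 in HFD and 0.36 in LFD embryos, and that of Mrps 0.04 and 0.29. With nuclear counts as the denominator r was 0.16 and 0.24 for Mrpl and 0.32 and 0.33 for Mrps. All these values share library and depth, and rRNA counts are part of the total by which the MRP counts are divided.

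**Figure D4:**
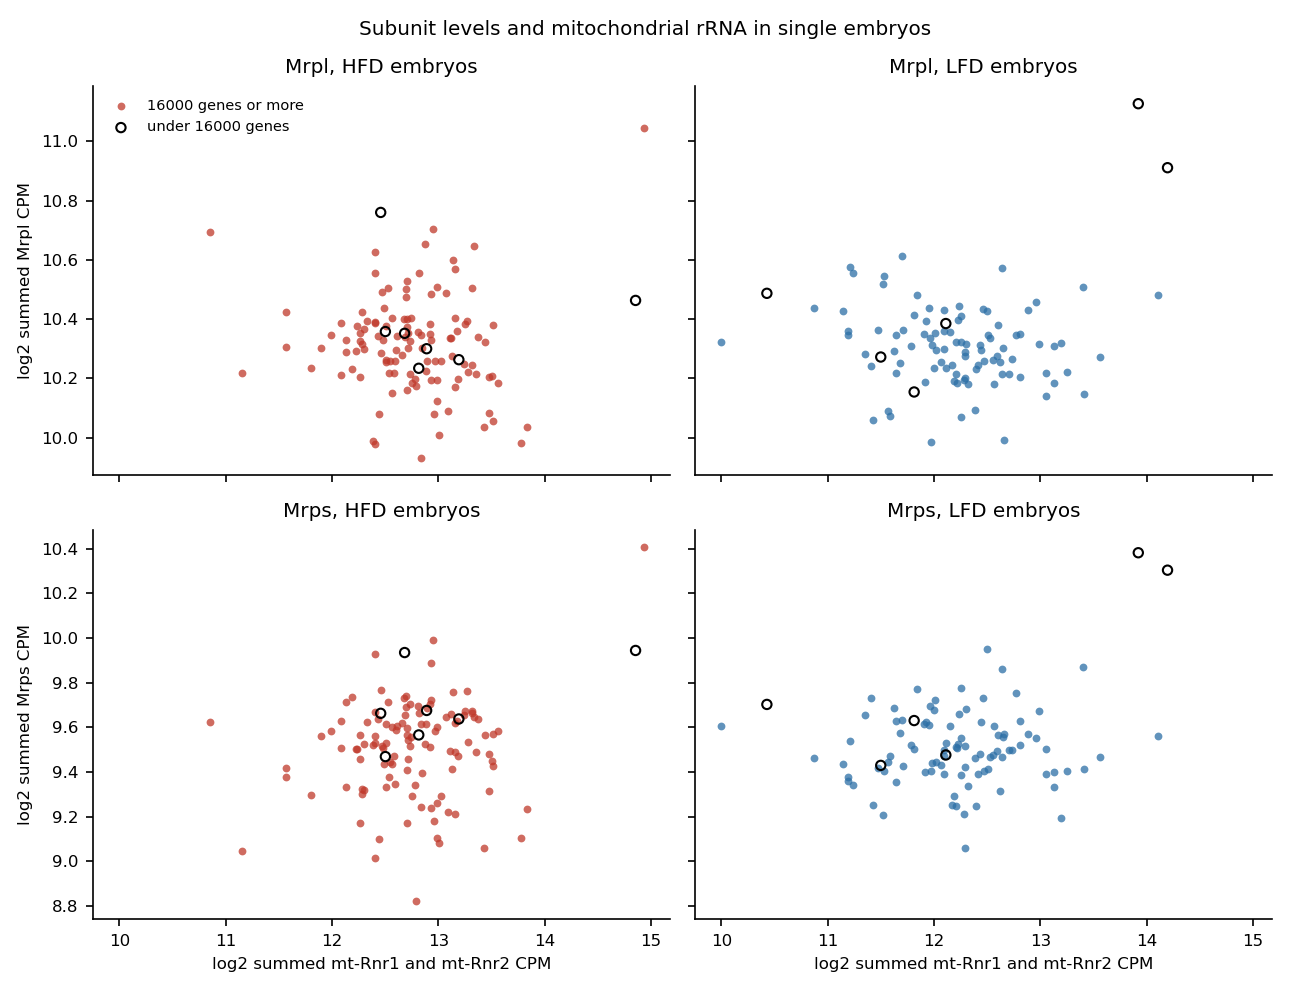
Log2 summed CPM of Mrpl (top) and Mrps genes (bottom) against the log2 summed CPM of mt-Rnr1 and mt-Rnr2, 1 point per embryo, HFD on the left and LFD on the right; open circles are embryos with under 16000 genes. The clouds show little slope, and the HFD embryo with the highest rRNA level also has the highest Mrpl and Mrps levels of its diet.

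Gene by gene, the slope on the rRNA level was tested with diet in the model (edgeR, log2 change per log2 unit of the rRNA level). Of 72 tested members 22 had a called positive slope and 3 a called negative slope. Over all 14818 genes tested, 25.6% were called, 13.9% positive and 11.6% negative, and the members' shares were 30.6% and 4.17%. By subunit, 12 of 45 Mrpl genes were called positive and 2 negative, and 10 of 27 Mrps genes were called positive and 1 negative. With number blocks within a diet (limma-voom) 9 Mrpl and 3 Mrps genes were called positive (20% and 11.1%), against 10.6% of all genes. The median slope was 0.12 over the members, 0.11 over Mrpl, 0.14 over Mrps and 0.02 over all genes tested.

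Most of these calls were lost when few embryos were left out. When the 5 embryos of each diet farthest from that diet's median rRNA level were left out, 5 of 72 members were called (3 positive, 2 negative) where 9.78% of all genes were, and the median slope of the members was 0.05. Of the 25 members called over all embryos, 3 were also called in the smaller set, Mrps26, Mrpl34 and Mrpl43. Of the 22 called positive, 19 kept a positive slope, and 19 had a smaller slope than over all embryos. Leaving out the farthest embryos also narrows the rRNA range, and why the calls were lost was not tested. The 10 embryos left out included 4 of the 13 with under 16000 genes. In HFD embryos alone 7 of 62 tested members were called, all positive (11.3%, against 14% of all genes called), and in LFD embryos alone 17 positive and 1 negative of 62 (29%, against 22.1%).

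The largest called slopes were those of Mrpl28, Mrps12, Mrpl34 and Mrpl43. Mrpl28, a large-subunit protein with a bacterial counterpart, had a slope of 0.41 ± 0.10 (SE; edgeR, adjusted p = 0.000355) and 0.26 in the smaller set (adjusted p = 0.190). Mrps12, a protein of the decoding centre, had 0.39 ± 0.14 (adjusted p = 0.0275) and 0.19 (adjusted p = 0.547). Mrpl28 ran from 0 to 90.8 CPM in HFD embryos (median 20.8) and from 0 to 79.8 in LFD embryos (median 19.8), and Mrps12 from 0 to 19.4 CPM (median 4.09) and from 0 to 20.6 CPM (median 3.27). In both genes the diets overlapped over nearly all of that range.

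Mrpl34 had a slope of 0.35 ± 0.06 (edgeR, adjusted p = 1.21e-06) and 0.26 ± 0.08 in the smaller set (adjusted p = 0.0346). Its level ran from 6.83 to 164 CPM in HFD embryos (median 39.8) and from 10.4 to 110 CPM in LFD embryos (median 37). All but 3 HFD embryos lay within the LFD range. Mrpl43, at a slope of 0.35 ± 0.09 (adjusted p = 0.00108) and 0.45 ± 0.12 in the smaller set (adjusted p = 0.00456), shares 33.4% of its exon bases with Twnk, the mitochondrial DNA helicase gene on the opposite strand, whose own slope was 0.21 (adjusted p = 0.0655) and which correlated with Mrpl43 at a rho of 0.82 in HFD and 0.69 in LFD embryos. What part of the Mrpl43 counts comes from Twnk was not tested.

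Mrps26, a small-subunit protein without a bacterial counterpart that was singled out after its values were seen, had the smallest adjusted p of all members. Its slope was 0.35 ± 0.06 (edgeR, adjusted p = 7.39e-07) and 0.29 ± 0.07 in the smaller set (adjusted p = 0.00295). It ran from 8.48 to 178 CPM in HFD embryos (median 61.8) and from 19.4 to 159 CPM in LFD embryos (median 67.2). Mrps26 and Mrpl34 were the 2 members called under each of the 14 alternatives tried for the slope.

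The smallest called slopes were those of Mrps2, Mrpl37, Mrpl3 and Mrps23. Mrps2, a bacterial-type protein at the back of the small subunit, had -0.21 ± 0.07 (edgeR, adjusted p = 0.0131), and Mrpl37, without a bacterial counterpart, had -0.16 ± 0.06 (adjusted p = 0.0443). Mrpl3, a core protein near the peptidyl transferase centre, had -0.16 ± 0.06 (adjusted p = 0.0424), and Mrps23 had 0.14 ± 0.04 (adjusted p = 0.00315). None of the 4 passed in the smaller set, where the slopes were -0.11, -0.20, -0.18 and 0.04. The members called negative are ordinary parts of both subunits and were above the median member in CPKM with 1 exception, Mrpl37 (6.05).

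**Figure D5:**
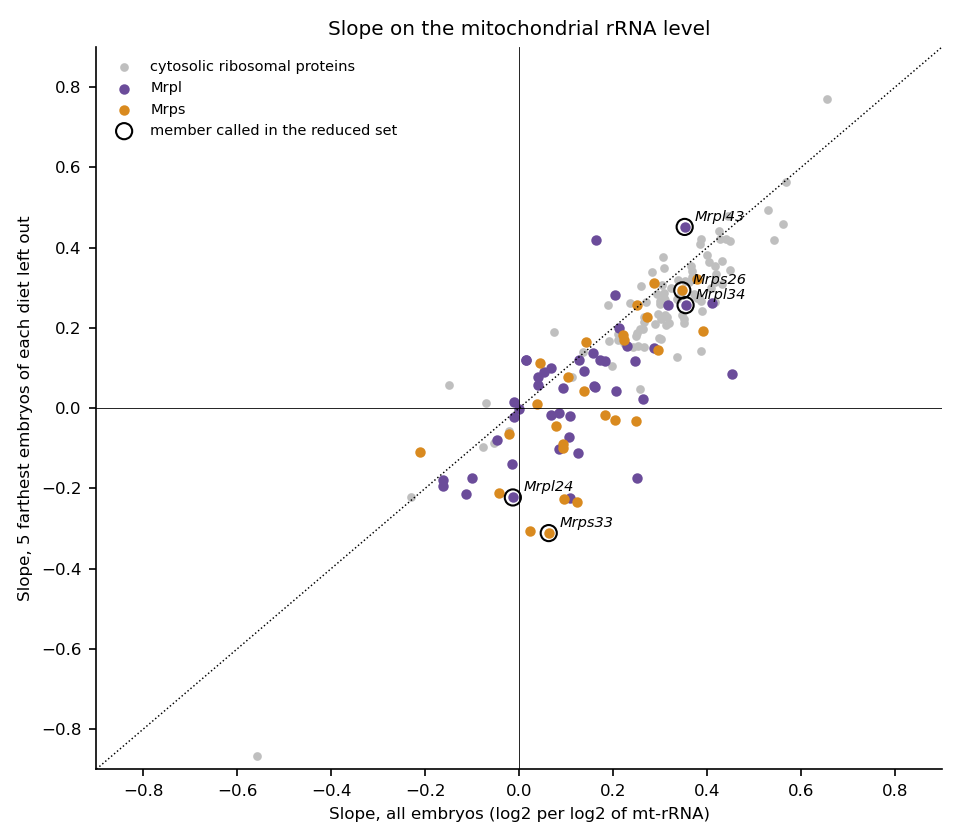
Slope of each tested gene on the log2 rRNA level over all embryos (x axis) and without the 5 embryos of each diet farthest from the median rRNA level (y axis), for Mrpl genes, Mrps genes and, in grey, cytosolic ribosomal proteins; the dotted line marks equal slopes. Mrpl and Mrps genes gather around 0 on the y axis, and the 5 circled members passed the threshold in the smaller set.

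Cytosolic ribosomal proteins had larger slopes in the same fits. Of 90 tested, 79 were called positive and 1 negative, with a median slope of 0.31, and in the smaller set 56 were called positive and 2 negative, with a median of 0.27. Of the 15 mitochondrial translation factors none was called positive and 3 were called negative. These were the elongation factor Gfm1 (-0.31), Gfm2 (-0.12) and the ribosome recycling factor Mrrf (-0.11). Of 24 assembly and rRNA-modification factors, Tfb1m, a 12S rRNA methyltransferase, was called positive (0.29) and Nsun4, which also methylates 12S rRNA, and Gtpbp10, a large-subunit assembly GTPase, were called negative (-0.15 and -0.21). Of the ribosomal proteins under another symbol, Chchd1 was called positive (0.32) and Ptcd3 negative (-0.17). Gfm1 and Nsun4 passed in the smaller set also, with slopes of -0.29 and -0.19, and among the translation factors Oxa1l, the inner-membrane insertase, was called positive there (0.43, and 0.23 without a call over all embryos).

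Whether the slope differs between diets was tested as an interaction. By edgeR 0 of 72 members and 3 of 14818 genes (0.0202%) passed, and 4 of 72 members had an unadjusted p under 0.05, beside 1015 of 14818 genes. The interaction estimates of the members ran from -0.53 to 0.52 with a median of 0.02. Of the members with the largest called slopes, Mrpl28 had 0.35 in HFD and 0.50 in LFD embryos and Mrps12 0.33 and 0.45. Mrpl34 had 0.42 and 0.32, Mrpl43 had 0.34 and 0.38, and Mrps26 had 0.30 and 0.40. Among the 4 members with an unadjusted p under 0.05 were Mrps9 and Mrps14. Mrps9 had 0.19 in HFD and -0.27 in LFD embryos (edgeR interaction, adjusted p = 0.671). Mrps14 had 0.32 and 0.14 (edgeR interaction, adjusted p = 0.714).

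MRP promoters shared sequence motifs that the rule did not use. RefSeq promoter windows (GRCm38.p6, 250 bases before to 50 bases after a start) were given for 69 of the 78 members, and 3 motifs known from genes for mitochondrial proteins were searched on both strands. The NRF1 motif GCGCATGC was in 8 of 69 members (11.6%), against 3.05% of all 27025 genes with a window and 5.85% of those tested here. The ETS motif CCGGAAG, bound by GABP among others, was in 26 members (37.7%), against 9.93% and 19.1%, and the YY1 motif AAGATGGC in 12 (17.4%), against 3.19% and 5.14%. The letters TATAAA were in 5 members (7.25%), against 15.7% and 9.42%. At least 1 of the first 3 motifs was in 38 members (55.1%) and in 27.2% of tested genes.

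By subunit, the ETS motif was in 16 of 45 large-subunit genes with a window and 10 of 23 small-subunit genes, the YY1 motif in 7 and 5, and the NRF1 motif in 7 and 1. Promoters of 4 members are shown because the diet or the rRNA comparison turned on them: Mrpl48, the member called between diets, Mrpl22, the next by p, and Mrpl34 and Mrps26, which held their slope in the smaller set. Mrpl43 also held its slope there and has an ETS motif, but its promoter is not shown. Each is the 250 bases before a RefSeq start, written along the strand of the gene, with NRF1, ETS and YY1 motifs in capitals. Mrpl48 has 4 such starts, and the sequence shown was picked because it holds a motif: the other 3 windows, the one at the annotated start of the gene among them, hold none of the 3 motifs before the start. The last sequence is the 41-base stretch between the RefSeq starts of Mrpl46 and Mrps11, written along the strand of Mrps11, which holds none of the motifs.
Mrpl48, chr7:100583131-100583380, minus strand: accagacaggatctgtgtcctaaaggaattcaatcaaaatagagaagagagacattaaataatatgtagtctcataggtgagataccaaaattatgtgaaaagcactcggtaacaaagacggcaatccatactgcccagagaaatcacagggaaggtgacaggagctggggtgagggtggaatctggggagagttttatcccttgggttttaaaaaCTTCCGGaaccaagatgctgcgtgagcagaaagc
Mrpl22, chr11:58171414-58171663, plus strand: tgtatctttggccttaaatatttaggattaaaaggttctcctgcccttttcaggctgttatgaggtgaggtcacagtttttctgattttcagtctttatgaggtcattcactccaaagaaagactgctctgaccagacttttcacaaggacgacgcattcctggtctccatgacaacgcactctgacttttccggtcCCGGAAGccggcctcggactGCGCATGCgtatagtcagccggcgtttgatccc
Mrpl34, chr8:71464676-71464925, plus strand: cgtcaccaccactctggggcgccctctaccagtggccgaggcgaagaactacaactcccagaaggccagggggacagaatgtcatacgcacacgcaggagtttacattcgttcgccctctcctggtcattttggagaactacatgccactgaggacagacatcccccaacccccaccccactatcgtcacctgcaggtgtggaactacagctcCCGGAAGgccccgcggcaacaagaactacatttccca
Mrps26, chr2:130563507-130563756, plus strand: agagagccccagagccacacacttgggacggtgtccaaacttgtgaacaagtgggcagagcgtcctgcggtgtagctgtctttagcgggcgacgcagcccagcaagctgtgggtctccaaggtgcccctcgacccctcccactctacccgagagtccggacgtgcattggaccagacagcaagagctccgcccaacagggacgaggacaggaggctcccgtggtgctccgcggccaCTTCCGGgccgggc
Mrpl46 and Mrps11, chr7:78783090-78783130, plus strand: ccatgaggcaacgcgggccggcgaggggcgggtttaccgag

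The window of Mrpl22 held both an ETS and an NRF1 motif, those of Mrpl34 and Mrps26 an ETS motif each, and 1 of the 4 windows of Mrpl48 an ETS motif. A match gives letters in a window and not a bound factor. None of the tests above bears on the use of these motifs in the embryos.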

How the data were processed

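The authors deposited 1 table of raw, unnormalized counts with a row for each gene, made from paired-end Smart-seq2 reads of 122 HFD and 99 LFD embryos. Per the study's methods and the submitters' processing notes, reads were trimmed with Trim Galore 0.6.6 and aligned with STAR 2.7.10a to GRCm38 carrying the Staudach mitochondrial sequence. Per the file headers, featureCounts 2.0.3 counted exonic reads of Ensembl release 102 genes with strand setting 2. Smart-seq2 libraries do not mark strand, so this setting loses part of the reads and gives a gene reads of an opposite-strand neighbour. Of the members, 27 share exon bases with such a neighbour, 8 of them over more than 20% of their exon bases.

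Embryos were grouped by the diet in the labels. Counts were tested with edgeR 4.0.16 (quasi-likelihood, TMM, filterByExpr, R 4.3.3) over all genes, with Benjamini-Hochberg adjustment and a threshold of 0.05. The rRNA level was log2 of the summed CPM of mt-Rnr1 and mt-Rnr2 plus 0.5, centred within diet, and both genes were left out of that fit. Subunit levels were log2 of summed CPM plus 0.5, with no test. The scripts were tested on simulated data. Among the 50 most similar pairs of libraries examined, counts differed by far more than sampling noise. The members, lists and comparisons were chosen with earlier results of these data known. Genes were named by rule: members called between diets, the 3 Mrpl and 3 Mrps genes with the smallest p, the 4 highest and 4 lowest by level, the 3 most and 3 least variable, the 4 largest and 4 smallest called slopes, the members not tested, and 6 with unusual names or places (Mrpl23, Mrps36, Mrps30, Mrps18a, Mrps18b and Mrps18c). Alternatives covered normalization, DESeq2 1.42.0, limma-voom 3.58.1, filters, covariates, embryo subsets and embryo number. Same-numbered embryos were checked as pairs: of 94 pairs, 20 had deviations correlated over 0.1 (median 0.01), so the numbers were not taken to pair embryos.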

Additional observations from a re-analysis of the deposited data

How the results depend on the processing

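By sire diet, 1 member was called in the fit as reported and under 7 of 14 alternatives. The count was 2 with DESeq2, 3 with no low-count filter, 4 without the embryos with under 16000 genes and 0 without HFD embryos 31 to 70. Alternatives chosen after seeing the data gave 0 with number blocks within a diet as a random effect and 3 in only the embryos with a shared number. The samples share only a number. With the embryo number as a replicate block over the 188 embryos of 94 shared numbers, 2 members were called by diet (Mrpl48 and Mrpl41) and 8 by slope, subunit means differed by 0.02 (Mrpl), 0.03 (Mrps) and -0.01 (their difference), and 1 HFD embryo correlated best with the LFD embryo of its own number. Over all genes 314 were called by diet (2.12%), 456 with DESeq2 (3.08%) and 7030 of 45512 with no filter (15.4%). With the block 496 were called (3.44%), and 581 without the embryos with under 16000 genes (3.9%). Without HFD embryos 31 to 70 the number was 175 (1.18%), with number blocks 80 (0.54%) and in the embryos with a shared number 627 (4.34%). Mrpl48 kept its sign under all 14 alternatives (log2 fold change -0.23 to -0.12). The pathway count was 0 under all 14. Under the 8 alternatives each, subunit differences between diets ran from -0.02 to 0.03 for Mrpl and from -0.04 to 0.03 for Mrps. The difference of Mrpl minus Mrps ran from -0.01 to 0.03. All 3 thus changed sign with the setting, and their standard errors over all embryos were 0.02, 0.03 and 0.02.

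By slope, 25 members were called, 7 in HFD embryos alone (62 members tested) and 8 with the replicate block. The count was 15 by limma-voom, 15 with number blocks within a diet and 5 without the 5 farthest embryos of each diet. These last 3 alternatives were chosen after seeing the data. The other 9 alternatives gave 18 to 27. Over all genes 3788 were called, and 1610 in HFD embryos alone, 1736 with the replicate block, 1459 without the farthest embryos and 2565 in LFD embryos alone. No named fold change or slope changed sign. Fewer samples enter the within-diet fits; for the other changes the cause was not tested. No alternative was run for the interaction.

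Pearson's r with the rRNA level moved by more than its standard error in 11 cases. With nuclear counts as denominator it was 0.16 (Mrpl, HFD), 0.24 (Mrpl, LFD) and 0.32 (Mrps, HFD). Without embryos with under 16000 genes it was -0.14 (Mrpl, LFD) and 0.0482 (Mrps, LFD). Without the 2 farthest embryos it was -0.21 (Mrpl, HFD) and 0.0253 (Mrps, HFD). As the mean of log2 over members it was 0.36 (Mrpl, LFD), 0.0351 (Mrps, HFD) and, for the large-minus-small difference, -0.0372 (HFD) and 0.00929 (LFD). The direction of the Mrpl relation therefore depends on these settings. Low counts limit the 6 members not tested and members such as Mrpl19, which had a count in 74.2% of embryos. CPKM also divides by exon length, so a low CPKM is not always a low count.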
